A study of Homo sapiens with 2 samples.

Results

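The Notch receptors NOTCH1, NOTCH2 and NOTCH3, their ligands DLL1, DLL3, JAG1 and JAG2, and the target genes HES1, HES5 and HEY1 were measured in both substates of H9 cells that the study distinguished. These 10 genes were chosen by name, and every non-control probe whose RefSeq accession belonged to one of them was used, which gave 14 of the 58201 probes of the array. In all, 22435 named genes had a probe. H9 is an established human embryonic stem (ES) cell line. The study characterised the substates in cells grown without feeder cells in TeSR-E8 medium on Matrigel, an extracellular matrix preparation. Substate 1 comprised typical compact colonies that stained strongly with the antibody R-10G, which binds keratan sulphate on stem cells, and not for vimentin, and substate 2 comprised colonies with wide spaces between the cells that stained for vimentin and more weakly with R-10G. RNA of substate 1 was taken at passage 35 and RNA of substate 2 at passage 50. The paper moved cells from another matrix, vitronectin, to Matrigel at passage 35, and does not state the matrix of the array cells. Matrix or time on Matrigel may therefore also have differed. The effects of passage, of such a difference and of substate cannot be told apart. How the cells of each substate were collected for RNA is not given in the sources used here. Each substate had 1 single-colour Agilent array, and neither allele nor agent differed between the groups by their labels.

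Notch is a transmembrane receptor that is activated by a ligand on the neighbouring cell. Ligand binding exposes the receptor to cleavage, first by an ADAM protease and then by gamma-secretase, and the freed intracellular domain enters the nucleus, where it joins the DNA-binding protein RBPJ and a Mastermind-like (MAML) coactivator. The HES and HEY genes are the best known direct targets and encode repressors of the basic helix-loop-helix class, which hold down proneural factors such as the neurogenins. In the developing nervous system the pathway is known for keeping progenitors from becoming neurons, and HES5 is closely tied to neural progenitors.

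The promoters of HES1 and HES5 are shown because these targets differed in opposite directions and both hold letters that RBPJ is known to recognise. The 250 bases before the annotated start are given 5′ to 3′ on the strand of the gene, from RefSeq on GRCh38.p14, with each match to TGGGAA, or to its reverse complement TTCCCA, in capitals. The HES1 promoter lies at chr3:194135898-194136147 on the plus strand and the HES5 promoter at chr1:2530264-2530513 on the minus strand.
HES1 promoter: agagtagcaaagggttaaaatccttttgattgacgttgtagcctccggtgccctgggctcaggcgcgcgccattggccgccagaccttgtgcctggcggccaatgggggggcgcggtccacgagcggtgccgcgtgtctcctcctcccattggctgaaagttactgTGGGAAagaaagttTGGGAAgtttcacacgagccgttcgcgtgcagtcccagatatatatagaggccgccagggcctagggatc
HES5 promoter: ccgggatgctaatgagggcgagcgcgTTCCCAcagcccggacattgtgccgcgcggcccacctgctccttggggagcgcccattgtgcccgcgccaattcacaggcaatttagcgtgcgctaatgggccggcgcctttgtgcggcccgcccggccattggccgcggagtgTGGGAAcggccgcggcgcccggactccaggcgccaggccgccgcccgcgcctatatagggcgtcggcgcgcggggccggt
In the HES1 promoter TGGGAA began at -84 and at -70 relative to the start, both on the strand of the gene. In the HES5 promoter it began at -80 on the strand of the gene and at -224 on the opposite strand. The longer form GTGGGAA, which contains the shorter one, was found at -85 in HES1 and at -81 and -224 in HES5. Both strands were searched, and over the same window 20.8% of the 35116 promoters in the table held TGGGAA and 5.43% held GTGGGAA. Of the 7 members with a promoter in the table, 2 held TGGGAA and the same 2 held GTGGGAA. The N-box CACNAG, a sequence bound by HES repressors, was present in HES1 at -165, -132 and -58 and in NOTCH3 at -211, and in 32.0% of all promoters. These matches describe letters in the sequence only.

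Intensities below are the background-corrected and detrended signals of the scanner software, in arbitrary units, each with the error that the software assigned to it. That error was about 10.1% of the intensity for a typical probe. The log2 difference is substate 2 minus substate 1 after subtraction of the 75th percentile of the same array, which stood at an intensity of 313.7 for substate 1 and 275.4 for substate 2. A positive difference therefore means a higher normalised signal in substate 2, and an equal raw intensity corresponds to a slightly positive difference. Each difference compares 2 arrays, has no replicate check and carries no p-value. Its error combines the software errors of both spots and does not cover the cells, the RNA or the labelling.

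The arrays were close in depth but not equal. Of all probes 55.6% in substate 1 and 52.8% in substate 2 lay well above background, by a flag of the scanner software. The flag was held by 2455 probes in substate 1 only and by 828 in substate 2 only, so bounds towards lower were the more common kind. That flag asks for more than a signal above the local background. The HES5 spot of substate 1, for example, lacked it with a raw median of 65 over a local background of 40. No probe was saturated, and the lowest intensities with the flag were 14.5 and 15.0. Over the 29883 probes measured on both arrays the differences had a median of 0.06 and an SD of 0.40. The labelled cell type was checked by its markers. Of 8 pluripotency genes 7 were measured, with a median difference of 0.20, and TDGF1 was not analysed here. POU5F1, which encodes OCT4, read 168160 ± 16816 in substate 1 and 181073 ± 18107 in substate 2. VIM (vimentin) was 2802 ± 280 in substate 1 and 14157 ± 1416 in substate 2, a difference of 2.53 ± 0.20, which is the direction of the staining by which the substates were named.

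All 10 Notch genes gave signal in at least 1 substate. NOTCH1 and JAG1 had lower normalised signal in substate 2, NOTCH3, DLL1 and DLL3 differed by less than their errors, and the NOTCH2 probes disagreed. JAG2 was slightly higher with its probes measured on both arrays. The targets parted, with HES1 lower and HEY1 and HES5 higher. Of the 14 probes 12 were well above background on both arrays, 1 probe of JAG2 only in substate 1, and the HES5 probe only in substate 2. All were printed as 1 spot, and none was saturated or flagged as an outlier. Of the 12 probes measured on both arrays, the difference exceeded its own error for 9 and exceeded 2 times that error for 2, those of HES1 and HEY1.

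**Figure D1:**
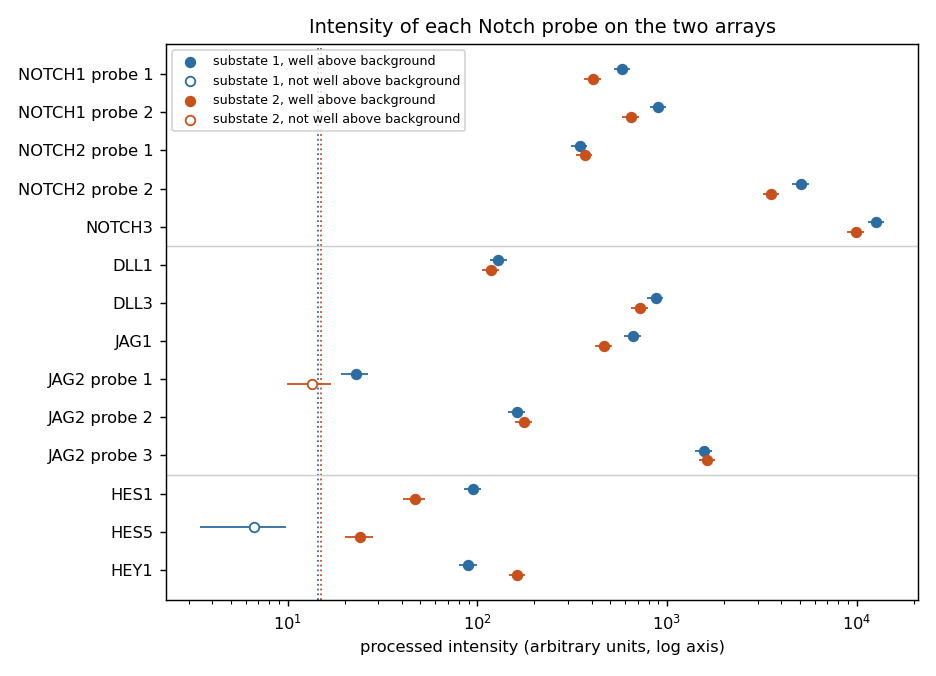
Processed intensity (arbitrary units, log axis) of each probe of the 10 Notch genes in substate 1 (blue) and substate 2 (orange), grouped as receptors, ligands and targets. Bars are the scanner software's error, open circles are spots that were not well above background, and the dotted lines mark the lowest intensity with that flag on each array; HES5, HES1 and HEY1 have the widest gaps between their pairs of points.

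Among the receptors, NOTCH1 had 2 probes that gave nearly the same answer. NOTCH1 is one of the most widely expressed receptors of the family. One probe read 581.6 ± 58.3 in substate 1 and 408.0 ± 41.0 in substate 2, a difference of -0.32 ± 0.20. The other probe read 901.1 ± 90.2 and 643.1 ± 64.4, a difference of -0.30 ± 0.20. Both were thus lower in substate 2, 1.25-fold and 1.23-fold, and 14.1% of the 15999 genes measured on both arrays had a mean at or below the -0.31 of NOTCH1.

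The NOTCH2 probes went in opposite directions. The dimmer one read 345.8 ± 34.7 in substate 1 and 367.1 ± 36.9 in substate 2, a difference of 0.27 ± 0.20. The brighter one read 5082 ± 508 and 3548 ± 355, a difference of -0.33 ± 0.20. The gap of 0.60 between them was wide for this array. Among the 3414 genes with 2 measured probes the median gap was 0.15, and 6.24% had a gap at least that of NOTCH2, whereas the gap for NOTCH1 was 0.02. The mean of NOTCH2, -0.03, therefore hides a disagreement and gives no direction for the gene.

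NOTCH3 read 12700 ± 1270 in substate 1 and 9880 ± 988 in substate 2. Its difference of -0.17 ± 0.20 did not exceed its error. The median over the 3 receptor genes was -0.17, with NOTCH2 entered at the mean of its disagreeing probes, against 0.08 over all measured genes.

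The ligands of the Delta type differed little. DLL1, an activating ligand, read 129.2 ± 13.3 in substate 1 and 118.4 ± 12.3 in substate 2, a difference of 0.06 ± 0.21. DLL3, which is known to act within the cell and to dampen the pathway, read 869.4 ± 87.0 and 719.5 ± 72.0, a difference of -0.09 ± 0.20. Neither exceeded its error.

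The Jagged ligands, which also activate the receptors, parted. JAG1 read 662.2 ± 66.3 in substate 1 and 463.1 ± 46.4 in substate 2, a difference of -0.33 ± 0.20 or 1.26-fold lower. Of the probes measured on both arrays, 16.3% fell at or below that value. JAG2 was represented by 3 probes. Of these, one read 161.8 ± 16.6 and 176.0 ± 18.1, a difference of 0.31 ± 0.21, and another read 1561 ± 156 and 1631 ± 163, a difference of 0.25 ± 0.20. The pair agree within their errors and both are higher in substate 2. The dimmest JAG2 probe read 22.8 ± 3.79 in substate 1 and 13.4 ± 3.48 in substate 2, where it was not well above background. That allows only a bound, at least 1.33-fold lower as processed here, and no bound remained with another background correction (normexp). Of the 2455 probes well above background in substate 1 only, 39.9% had a bound at least as far down as that of this probe. With that probe included at its measured value the mean for JAG2 falls from 0.28 to -0.01, so the direction of JAG2 rests on the probes that were measured on both arrays. Over the 4 ligand genes, 2 were higher and 2 lower, with a median of -0.01.

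HES1, a target that responds to Notch in many cell types, read 94.9 ± 10.1 in substate 1 and 46.8 ± 5.99 in substate 2. The values were separated by more than their errors, with the higher one in substate 1. The difference of -0.83 ± 0.24 was 1.78-fold lower, and 2.39% of the probes measured on both arrays were at or below it.

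HEY1, a hairy-related repressor known from the vasculature and the heart as well as the nervous system, went the other way. It read 89.7 ± 9.44 in substate 1 and 162.6 ± 16.5 in substate 2, so that the error ranges did not meet. The difference of 1.05 ± 0.21 was 2.06-fold higher, and 0.730% of the measured probes were at or above it. Among genes that share was 0.819%, and the difference between HEY1 and HES1 in the same comparison came to 1.88 on the log2 scale.

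HES5 was near the detection limit. Its probe read 6.61 ± 3.16 in substate 1, where it was not well above background, and 24.1 ± 4.07 in substate 2, where it was. As processed here, the values allow a bound only, at least 1.90-fold higher in substate 2. The measured values alone differ by 2.05 ± 0.73. The bound takes the intensities as read, without their errors, and was 1.35-fold with another background correction (normexp). Such bounds were common at this signal. Of the 828 probes that were well above background in substate 2 only, 36.5% had a bound at or above that of HES5. On each array, 1 of the 308 negative control spots was at or above the HES5 spot, with medians of 3.31 and 3.54 for these controls.

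**Figure D2:**
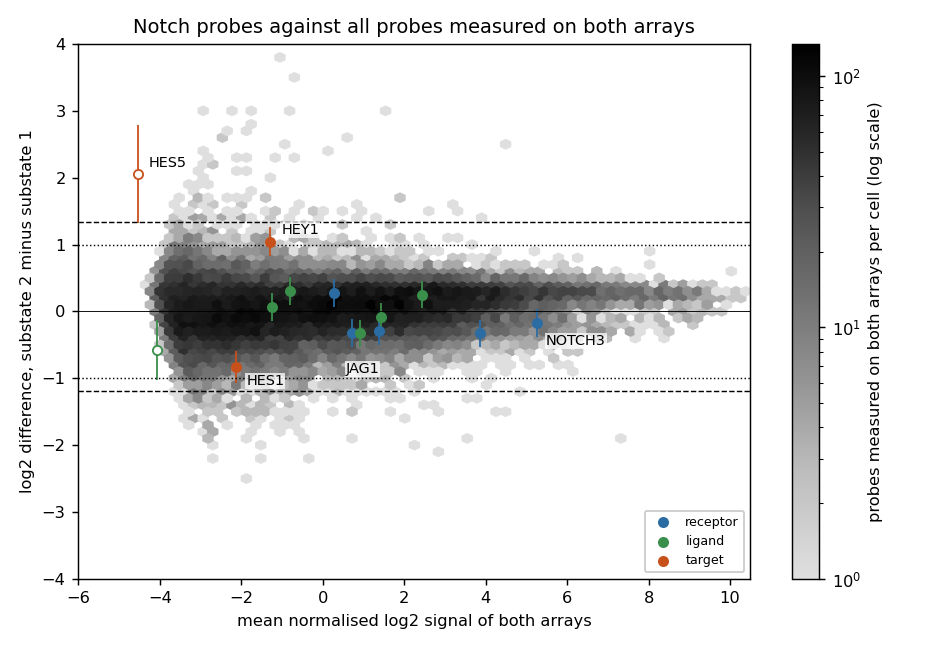
Log2 difference (substate 2 minus substate 1) against the mean normalised log2 signal for the 14 Notch probes, coloured by role with bars for the combined software error, over all 29883 probes measured on both arrays (grey cells, log colour scale; 1 probe lies below the plotted range). Open circles are probes well above background on 1 array only, dotted lines mark 2-fold and dashed lines the Z-score limits; HEY1 sits just above the upper dotted line, HES5 lies above the upper dashed line and HES1 above the lower dotted line.

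Set against rules of size for the whole array, few of these probes stood out. The Z-score of the study's methods is the difference minus its mean over all probes, divided by its SD over all probes, and its limit of 2 corresponds to 2.53-fold higher or 2.29-fold lower. By this rule 1 of the 14 probes (7.14%) was called, HES5 with a Z-score of 3.13, beside 6.33% of all probes. That score rests on a substate 1 spot that was not well above background, and at its bound HES5 had a Z-score of 1.34, inside the limit. HES1 had a Z-score of -1.43 and HEY1 of 1.54. A further rule took the 33166 probes with the background flag in either substate and entered a probe measured on 1 array at its bound. By it 1 of 14 was 2-fold or more higher (HEY1, 7.14%), beside 1.55% of those probes. None was 2-fold or more lower, beside 1.67%. A single call by each rule is too few to set the Notch probes apart from the array. By gene, 3 of the 9 members measured on both arrays were higher and 6 lower, with NOTCH2 entered at the mean of its disagreeing probes. Of all 15999 genes measured on both arrays, 9562 were higher and 6437 lower. Against the median of all genes 2 members lay above and 7 below, with a member median of -0.09 against 0.08.

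The other genes of the pathway were taken from a list arranged by role. Of its 67 genes 65 had a probe, and MAML2 and CIR1 were not analysed here. Of their 92 probes 81 were well above background on both arrays, which measured 56 genes. In substate 2, 34 of these were higher and 22 lower, beside 9562 higher and 6437 lower of all 15999 measured genes. The counts by role below stand beside that same split. The median of the 56 genes was 0.05, and 30 of them lay within 0.2 of no difference. Of the 83 probes well above background in either substate, 3 were 2-fold or more higher (3.61%) and 0 lower.

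**Figure D3:**
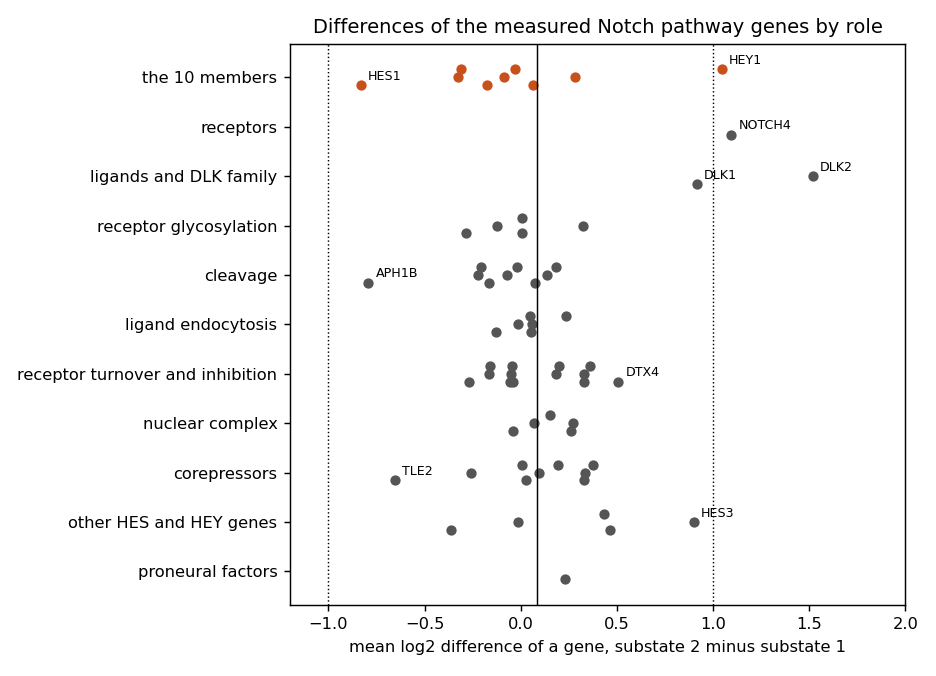
Mean log2 difference (substate 2 minus substate 1) of each gene measured on both arrays, for the 10 named Notch genes (orange, 9 measured) and for the other 56 pathway genes by role (grey); points are offset vertically only to keep them apart. The solid line is the median of all measured genes, 0.08, and the dotted lines mark 2-fold; NOTCH4 and DLK2 lie beyond the upper dotted line, and most enzymes, adaptors and nuclear factors lie near the solid line.

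The 3 probes past 2-fold belonged to the fourth receptor and the DLK family. NOTCH4, a receptor known mainly from endothelium, read 240.9 ± 24.3 in substate 1 and 451.6 ± 45.3 in substate 2, a difference of 1.09 ± 0.21. The corresponding differences were -0.31 for NOTCH1 and -0.17 for NOTCH3. DLK2, a non-canonical ligand that lacks the receptor-binding domain of the Delta proteins, read 38.8 ± 5.04 and 97.4 ± 10.4, a difference of 1.52 ± 0.24. DLK1, its imprinted relative, had one probe that read 39.1 ± 4.99 in substate 1 and 110.3 ± 11.5 in substate 2, a difference of 1.69 ± 0.24, and another that read 114.2 ± 11.8 and 110.9 ± 11.6, a difference of 0.15 ± 0.21. The DLK1 probes therefore disagreed by 1.54. DLL4, the endothelial Delta ligand, was not well above background in either substate. Endothelial markers were read beside NOTCH4. Of 6 such genes 4 were measured, with a median difference of -0.37. These were CDH5 at 0.32, VWF at -0.03, KDR at -0.71 and TEK at -0.93. All 3 probes of PECAM1 were not well above background in either substate, and ESAM was well above background in substate 1 only. The part of endothelial cells in the value of NOTCH4 was not tested.

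The genes that modify and cleave the receptor differed little, with 1 exception. Of the 5 glycosylation genes, which alter how receptors answer their ligands, 3 were higher and 2 lower, from -0.29 for the fucosyltransferase POFUT1 to 0.32 for MFNG, and the probes of LFNG disagreed at -0.32 and 0.33. Of the 9 cleavage genes 6 were lower. APH1B, a subunit of gamma-secretase, read 1091 ± 109 in substate 1 and 553.3 ± 55.4 in substate 2, a difference of -0.79 ± 0.20. APH1A, the paralogue of APH1B, differed by 0.14 as the mean of its probes. The 6 genes of ligand endocytosis, the step by which the sending cell pulls on the receptor, ranged from -0.13 for NEURL1 to 0.23 for MIB1. The 13 genes of receptor turnover and inhibition ranged from -0.27 for DTX3 to 0.51 for DTX4. NRARP, itself a direct Notch target that destabilises the nuclear complex, read 4966 ± 497 and 4999 ± 500 with its bright probe, a difference of 0.20 ± 0.20, whereas its other probe was not well above background.

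In the nucleus RBPJ gave 0.07 with both of its probes, and the mean differences of the 5 measured genes of the complex ranged from -0.04 for the acetyltransferase EP300 to 0.27 for MAML1. The 3 probes of the coactivator MAML3 lay between -0.23 and 0.56, with a mean of 0.15. The acetyltransferase KAT2B read 24.5 ± 4.25 in substate 1 and 15.8 ± 4.03 in substate 2, where it was not well above background, so it was at least 1.37-fold lower. Of the 9 measured corepressors, which act with RBPJ or with the HES proteins, 7 were higher and 2 lower. TLE2 was the lowest, at 381.0 ± 38.2 and 212.4 ± 21.5, a difference of -0.66 ± 0.21, and TLE3 the highest at 0.38.

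The other HES and HEY genes had no common direction. HES3 read 89.5 ± 9.44 in substate 1 and 146.7 ± 15.0 in substate 2, a difference of 0.90 ± 0.21. HES6, which is known to oppose HES1 and to promote neuronal differentiation, was higher with all 4 of its probes, from 0.31 to 0.64. HES4 was lower, at 707.8 ± 70.9 and 482.5 ± 48.4, a difference of -0.36 ± 0.20. HEY2 differed by 0.43 ± 0.20 and HEYL by -0.01 ± 0.21, and HES2 and HES7 were not well above background in either substate. Of this group HES3, HES4, HEY2 and HEYL also held TGGGAA in the promoter window, and their differences ranged from -0.36 to 0.90.

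The proneural factors that HES repressors hold down were mostly at background. NEUROG2, ATOH1 and NEUROD1 were not well above background in either substate. NEUROG1 read 25.6 ± 4.85 in substate 1 and 4.53 ± 4.56 in substate 2, where it was not well above background, so it was at least 1.50-fold lower. NEUROG3 differed by 0.23 ± 0.20.

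Markers of other cell types differed between the arrays to unlike degrees. Of 8 neural progenitor genes 5 were measured, with a median difference of 1.00, led by LHX2 at 86.7 ± 9.57 and 381.2 ± 38.3. SOX1 read 3.06 ± 3.07 and 21.7 ± 3.92, at least 1.71-fold higher, while the defining marker PAX6 was not well above background with any probe and OTX1 was lower at -0.89. Of 8 neuronal genes 6 were measured, with a median of 0.35 and means from -0.74 for SYT1, which had 1 of its probes past 2-fold lower, to 1.45 for STMN2. Of 6 neural crest genes 3 were measured, with a median of 0.06 and means from 0.05 for FOXD3 to 0.45 for PAX7. Only FOXA2 of the 7 mesendoderm genes was measured, with a difference of 0.77. In RNA from many cells, a change in the number of cells of a type and a change in RNA per cell cannot be told apart, and the part of these markers in the values of HES1, HES5 and HEY1 was not tested.

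**Figure D4:**
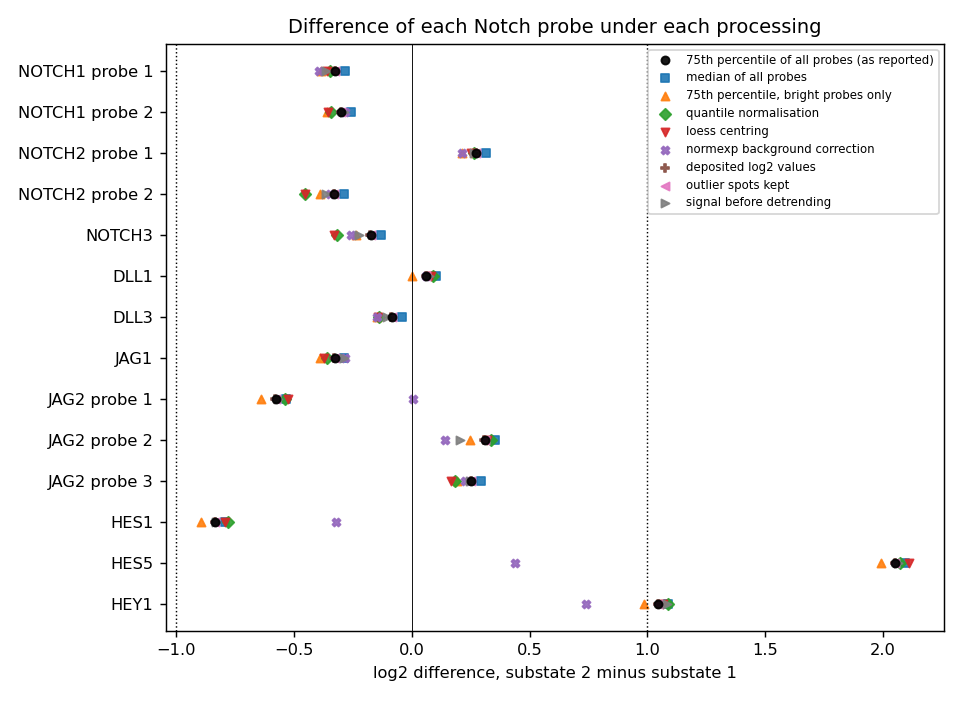
Log2 difference (substate 2 minus substate 1) of each of the 14 Notch probes as reported (black) and under 8 other ways of processing the same arrays; dotted lines mark 2-fold. Most probes keep within a narrow range, while normexp background correction (purple) moves HES5 to 0.44, HES1 to -0.32, HEY1 to 0.74 and the dimmest JAG2 probe to 0.00.

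How far these values hang on the processing is shown by the plot of each probe under each setting. Under the 8 alternatives 13 of the 14 probes kept their sign, and the exception was the dimmest JAG2 probe under normexp. HES1 ranged from -0.89 to -0.32, HEY1 from 0.74 to 1.09 and HES5 from 0.44 to 2.11, so that these 3 kept their directions while their sizes moved. HEY1 was below 2-fold under 2 of the alternatives, at 1.67-fold with normexp and 1.98-fold with the shift taken over bright probes.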

How the data were processed

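Total RNA of each substate was labelled with Cy3 and hybridised to 1 single-colour Agilent whole-genome array. The authors deposited the scanner output, which gives an intensity for every spot. Per the file headers, this came from Feature Extraction 11.5.1.1 with protocol GE1_1105_Oct12, which subtracts background and removes spatial trends. The authors also deposited log2 values, made in GeneSpring GX by setting signals under 1 to 1 and shifting each array by its 75th percentile. Differences between those log2 values matched the ones computed here for all 58201 probes within 0.01.

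From the intensities, outlier spots were left out where the same probe had a spot without that flag, and were kept otherwise. Values were floored at 1 (0 spots were lower), log2 was taken and repeat spots were averaged by probe. Each array was then centred on its 75th percentile over probes (Python 3.11.15, pandas 2.3.3). The loess (span 0.3) and normexp (offset 50) alternatives used limma 3.58.1 in R 4.3.3, and quantile normalisation was done in Python. A probe counts as measured if it was well above background and not saturated, and gene values are means over probes measured on both arrays. A probe measured on 1 array was set against the other array, written as at least N-fold. There the higher of that array's lowest signal well above background and the probe's own signal was used. Such a bound leaves out the errors of the intensities. Names came from matching the design's RefSeq accessions to a RefSeq gene table of GRCh38.p14, which named 31100 probes (53.4%). The array design is annotated on hg19, so coordinates are given for promoters only.

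All member probes were reported, and the pathway and marker lists were chosen with earlier results of these data known. With 1 array per substate no test between the substates was made, and the number of arrays limits the precision. Both arrays lay on the same slide. Between repeat spots of 291 measured probes, the SD of a single-spot log2 difference was 0.07, and 0.22 for the 10 dimmest, under an intensity of 100. The calling procedure was checked on simulated data only for large changes in bright probes flagged on both arrays. That check did not cover changes as small as that of HEY1 or probes as dim as that of HES5. Some genes of the pathway list are not reported here.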

Additional observations from a re-analysis of the deposited data

How the results depend on the processing

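Of the alternatives for the counts and medians, 40 stayed close to the reported value and 8 moved. The number of member probes past the Z-score limits, 1 as reported, was 2 with normexp (NOTCH1 and HEY1), 2 when the Z-score was taken over probes well above background on both arrays (HES1 and HEY1), 4 with an SD from the median absolute deviation (JAG2, HES1, HES5 and HEY1), and 0 with the signal before spatial detrending, an alternative chosen after seeing the data. The number past 2-fold, 1 as reported, was 0 with the 75th percentile taken over probes well above background on both arrays and 0 with normexp. For the other pathway genes it fell from 3 to 0 with normexp, which adds an offset that shrinks differences of dim probes. The median of the member genes, -0.09, was -0.17 with the brightest probe of each gene. For single genes, NOTCH2 was -0.33 with its brightest probe, and NOTCH3 was -0.32 with quantile normalisation and -0.33 with loess. Medians and genes close to 0 changed sign. The median of the other pathway genes, 0.05 as reported, was -0.01 with the 75th percentile over bright probes and -0.01 with loess, NOTCH2 was 0.01 with centring on the median, and JAG2 was -0.01 with all of its probes. The cause of the other shifts was not tested.

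Normexp used the median spot signal, and naming probes by the gene name column was not run. No paired analysis was possible because there was a single array of either substate, and no fit without a replicate was run. HES1, HES5, HEY1, the dimmest JAG2 probe, DLK1, DLK2, HES3 and NEUROG1 each had at least 1 spot under an intensity of 100. Spot noise is largest there. The same held for DTX4, MAML3, KAT2B, SOX1, LHX2 and a probe of LFNG, among others.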
